A study of Mus musculus with 7 samples.

Results

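The cerebellar granule lineage transcription factors examined here are Atoh1, Zic1, Zic2, Zic4, Pax6, Barhl1, Neurod1, Meis1 and Etv1. They were listed by name as factors of this lineage, with earlier results of these data known. All 9 are among the 34592 genes of the count table, and 7 of them were among the 17389 genes with enough counts to be tested. Their levels were measured by RNA sequencing in 7 mouse Group 3 medulloblastomas (G3 MBs), namely 3 controls and 4 tumors in which human WDR11 was overexpressed (WDR11OE).

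Every tumor came from one G3 MB tumorsphere line, number 19568. The line was started from granule neuron progenitors of 7-day-old Trp53-/-; Cdkn2c-/- mice that were infected with an MSCV retrovirus for Myc-IRES-GFP, so both groups share the loss of these 2 genes and the enforced Myc. A figure legend of the study gives RFP instead of GFP as the marker in this line. Dissociated spheres were then infected with a lentivirus, which was pCDH-EF1 with WDR11 and copGFP for WDR11OE and an empty vector for the controls. The backbone of that empty vector is not stated for the sequenced controls. The study's methods describe the controls as carrying an empty vector, whereas their treatment label is none. The infection did not reach every cell and the study describes the implanted cells as unsorted, so a WDR11OE tumor may hold cells without the transgene. At a dose of 100000 spheres, the infected cells were implanted in Matrigel in the cerebral cortex of CD1-nu/nu hosts, which for this model were 6 to 8 weeks old, and tumors were taken when the hosts were moribund. This dose is from the study's methods, and its results give the same number as cells. The study's methods describe the sequenced samples as tumors, whereas the source label of the controls and the study's abstract speak of tumorspheres. Whether tumor chunks or spheres were sequenced is therefore not settled. Tumor chunks would hold host cells of mouse origin too, and fewer cells of a type cannot be told apart from less RNA per cell. Replicate numbers below are names only, and the labels do not say whether WDR11OE replicates 1 and 2, whose titles share a number, came from one host, so p-values measure the spread between these samples.

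Cerebellar granule neurons arise from the rhombic lip, a strip of hindbrain neuroepithelium. Its progenitors express the bHLH factor Atoh1, divide in the external granule layer under Sonic hedgehog, and then leave the cycle, turn on Neurod1 and migrate inwards. The Zic zinc finger factors and the paired homeobox factor Pax6 are expressed in progenitors and in granule neurons. Barhl1 is a homeobox factor downstream of Atoh1, Meis1 is a TALE homeobox partner of Pbx proteins, and Etv1 is an ETS factor that is turned on as granule neurons mature. Atoh1 and Neurod1 bind E-boxes, which have the form CANNTG, as dimers with E proteins such as Tcf3.

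RefSeq promoters of GRCm38.p6, from 250 bases before the gene start to 50 after it, were matched for 8 of the 9 factors, without an entry for Zic2. The 4 shown are those of Zic1 and Zic4, a neighbouring pair whose levels are followed together below, and of Atoh1 and Barhl1, the members with almost no reads. They are written 5′ to 3′ on the strand of the gene, and capitals mark each CANNTG. The Zic1 promoter is at chr9:91365719-91366018 on the minus strand, that of Zic4 at chr9:91368722-91369021 on the plus strand, that of Atoh1 at chr6:64728875-64729174 on the plus strand, and the first of 2 for Barhl1 at chr2:28916619-28916918 on the minus strand.
Zic1: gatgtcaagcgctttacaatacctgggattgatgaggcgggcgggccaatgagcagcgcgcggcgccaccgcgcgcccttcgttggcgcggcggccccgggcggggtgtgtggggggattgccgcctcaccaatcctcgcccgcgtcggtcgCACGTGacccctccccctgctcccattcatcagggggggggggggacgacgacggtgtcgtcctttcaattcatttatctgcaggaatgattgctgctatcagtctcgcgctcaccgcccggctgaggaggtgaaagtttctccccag
Zic4: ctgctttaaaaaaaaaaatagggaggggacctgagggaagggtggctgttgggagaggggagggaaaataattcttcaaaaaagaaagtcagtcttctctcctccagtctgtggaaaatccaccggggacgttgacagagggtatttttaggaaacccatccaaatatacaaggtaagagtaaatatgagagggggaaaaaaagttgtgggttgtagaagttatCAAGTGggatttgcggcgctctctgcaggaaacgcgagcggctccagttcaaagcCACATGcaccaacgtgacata
Atoh1: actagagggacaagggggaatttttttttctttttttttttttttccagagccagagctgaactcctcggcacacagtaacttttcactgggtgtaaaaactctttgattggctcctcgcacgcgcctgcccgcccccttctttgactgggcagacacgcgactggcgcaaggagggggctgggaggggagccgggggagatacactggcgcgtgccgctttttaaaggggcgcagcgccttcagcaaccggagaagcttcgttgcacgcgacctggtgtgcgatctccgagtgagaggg
Barhl1: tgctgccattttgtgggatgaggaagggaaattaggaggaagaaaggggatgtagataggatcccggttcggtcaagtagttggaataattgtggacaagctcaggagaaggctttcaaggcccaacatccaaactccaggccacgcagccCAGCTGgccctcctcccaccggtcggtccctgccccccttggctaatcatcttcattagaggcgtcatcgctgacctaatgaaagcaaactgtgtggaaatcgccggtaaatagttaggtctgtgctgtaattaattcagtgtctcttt
The Zic1 promoter holds 1 CANNTG, that of Zic4 holds 2, and that of Atoh1 holds none. CANNTG was present in a promoter of 7 of the 8 matched factors and in 72.3% of all 32851 promoters of this length. Here and below, a factor was counted if any of its promoters held the motif, whereas the percentages are over single promoters. Pax6, Barhl1 and Etv1 have 2 promoters each, so the counts and percentages differ in unit. CAGCTG, one form of CANNTG, was found for 1 of the 8 (Barhl1), and CAGATG, another form, for 1 (Etv1), beside 16.3% and 17.2% of all promoters. TGACAG, a sequence that Meis proteins bind, was present for 3 factors (Zic4, Pax6 and Barhl1) and in 19.2% of all promoters, and CAGCAGG, a form bound by Zic proteins, for 0 and in 10.5%. All motifs were searched on both strands, and a match describes these letters only.

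Total counts lay between 33417175 and 41397427 in the control tumors and between 32116095 and 87141305 in the WDR11OE tumors. Wdr11, for which reads of human and mouse transcripts are not separated, was at 58.3 to 59.3 CPM (counts scaled to library size) in controls and at 61.0 to 68.9 CPM in WDR11OE (log2 fold change 0.16, adjusted p = 0.0910, edgeR). Control and WDR11OE libraries carry names from separate series, so a difference between the library series and the condition cannot be told apart. Over the whole table, 33.9% of the tested genes were called by edgeR's quasi-likelihood fit, at a Benjamini-Hochberg adjusted p under 0.05 and any fold, 18.1% higher and 15.8% lower in WDR11OE. Among lists of markers for other cells, the skeletal muscle list differed between the conditions, with 7 of 7 genes higher, and its summed level was 2.30 to 2.81 CPM in controls and 40.4 to 110.0 CPM in WDR11OE. Its part in the values below was not tested.

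None of the 7 tested factors passed the adjusted test with WDR11 in either direction, beside 18.1% of all tested genes called higher and 15.8% called lower. By the study's own rule, which also asks for a 2-fold change and an average log2 CPM above 0, 0 factors were called, beside 2.19% of all tested genes higher and 3.36% lower. At an unadjusted p under 0.05, 2 were higher (Meis1 and Zic2) and 0 were lower, beside 23.9% and 19.9% of all tested genes. The adjusted calls were 0 and 0 with limma voom and 2 and 0 with DESeq2, with Meis1 and Zic2 again the higher genes. Over all 17389 tested genes these calls numbered 3079 and 2681 with voom, and 3101 and 3361 with DESeq2. Meis1 had the clearest separation, with all 4 WDR11OE tumors above all 3 controls. Zic1, Zic4, Etv1 and Neurod1 were at their lowest in WDR11OE replicate 1 or 2 and at their highest in WDR11OE replicate 4, so that the WDR11OE group spanned the whole range of the controls. Atoh1 had no read in any tumor.

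**Figure D1:**
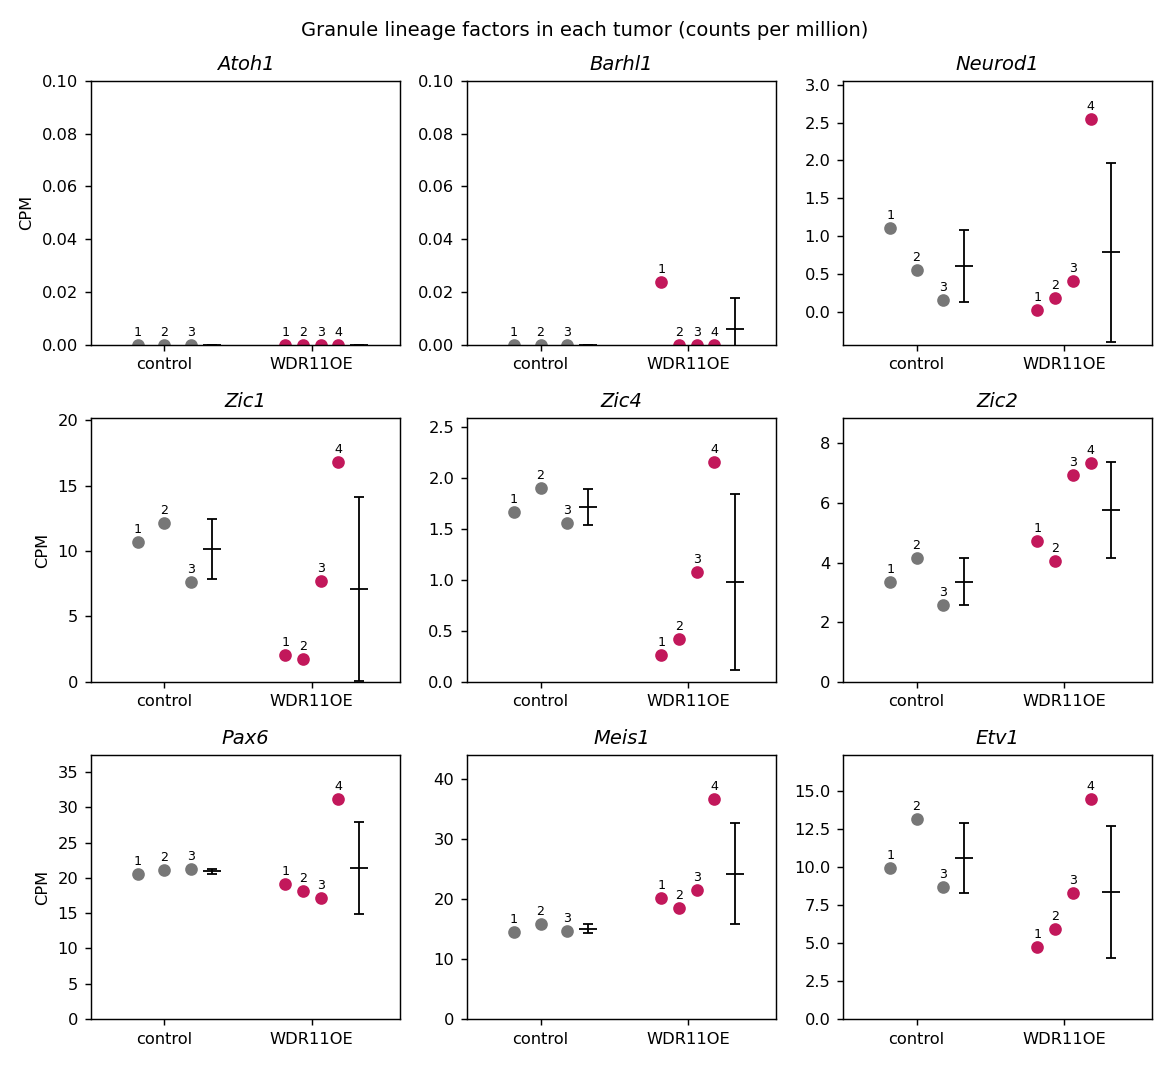
Level of the 9 factors in every tumor, in CPM on a linear axis that differs between panels. Grey points are the 3 controls and pink points the 4 WDR11OE tumors, each with its replicate number, and the bar beside them gives the mean ± SD. The WDR11OE point numbered 4 is the highest of each tested factor, and the 4 WDR11OE points of Meis1, at 18.4 to 36.6 CPM, lie above the controls.

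Atoh1, the bHLH factor that specifies the granule lineage, was at 0 counts in all 7 tumors. Its gene has a single exon at chr6:64679140-64681227 on the plus strand (NCBIM37, the build of the counts). Over the 357159566 counts of all tumors, 3 counts are 0.00840 CPM, and in a single tumor they are between 0.0329 and 0.0924 CPM, which are the limits a count of 0 allows for counting error. Barhl1, at chr2:28763199-28772188 on the minus strand, was represented by 1 count, in WDR11OE replicate 1, and by 0 counts in the other 6 tumors. Against the label of the lineage, Atoh1 was not detectable and Barhl1 was at the limit of detection, and the values that follow are those of the other 7 factors. Of the markers for granule cells outside the list, En1, a homeobox gene of the early mid-hindbrain, had at most 2 counts in any tumor. Gabra6, a GABA receptor subunit of mature granule neurons, had at most 18. Most other genes of the lists that hold En1 and Gabra6 were detected. In these lists, 16 of 17 progenitor genes and 8 of 10 genes of mature granule neurons had enough counts to be tested. The progenitor list summed to between 4682 and 4888 CPM in the controls.

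Neurod1, the bHLH factor of postmitotic granule neurons, lies at chr2:79292678-79296908 on the minus strand. In control replicates 1 to 3 its level was 1.11 CPM, 0.548 CPM and 0.153 CPM. In WDR11OE replicates 1 to 4 it was at 0.0237 CPM, 0.175 CPM, 0.401 CPM and 2.54 CPM, which are 1, 14, 13 and 232 counts. The WDR11OE values lie on both sides of the controls, and the highest WDR11OE tumor was 107 times the lowest. The log2 fold change was 0.41 (SE 1.27, adjusted p = 0.838, edgeR), with a 95% interval from −2.56 to 3.37, and the difference of the mean log2 CPM had the opposite sign, at −0.53 (two-sided exact permutation test over 35 splits, p = 0.743, where the smallest possible p is 0.0286). The direction was therefore not settled by these 7 tumors. Neurod1 lies within Cerkl on the same strand, and 201 bases of exon are shared, so reads there cannot be assigned to one gene.

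Zic1, a zinc finger factor of the dorsal hindbrain, lies at chr9:91252896-91260648 on the minus strand. Its control values were 10.7 CPM, 12.1 CPM and 7.63 CPM. WDR11OE replicates 1 and 2 were at 2.06 CPM and 1.76 CPM, replicate 3 at 7.67 CPM and replicate 4 at 16.8 CPM. Replicates 1 and 2 were below every control and replicate 4 above every control, and replicate 3 was within the control range. With edgeR, its log2 fold change was −0.52 (SE 0.76, adjusted p = 0.647), with a 95% interval from −2.30 to 1.26. Within WDR11OE the SD of log2 CPM was 1.55, which is at percentile 95.8 of all tested genes, and in the controls it was 0.34, at percentile 67.9.

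Zic4 lies beside Zic1 in opposite orientation, at chr9:91257251-91284186 on the plus strand, and 60 bases of exon overlap. It was at 1.67 CPM, 1.91 CPM and 1.56 CPM in the controls. In WDR11OE replicates 1 to 4 it was at 0.261 CPM, 0.424 CPM, 1.08 CPM and 2.16 CPM. WDR11OE replicates 1 to 3 were below every control and replicate 4 was above every control. Over all 7 tumors, Zic4 had a log2 fold change of −0.79 (SE 0.66, adjusted p = 0.407, edgeR), with a 95% interval from −2.35 to 0.76. Without WDR11OE replicate 4 it was −1.57 with an adjusted p = 0.0527, and that of Zic1 was −1.42 with an adjusted p = 0.0992, both from edgeR.

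Zic2, the Zic factor that shares a locus with Zic5, lies at chr14:122874604-122879074 on the plus strand. It was at 3.33 CPM, 4.15 CPM and 2.57 CPM in the controls and at 4.71 CPM, 4.05 CPM, 6.93 CPM and 7.33 CPM in WDR11OE replicates 1 to 4. Control replicate 2 was above WDR11OE replicate 2, and the other 3 WDR11OE tumors were above all controls. The log2 fold change was 0.78 (SE 0.28, adjusted p = 0.0730, edgeR; exact permutation p = 0.0857), with a 95% interval from 0.11 to 1.44. The call was made by DESeq2 (adjusted p = 0.0444) and by edgeR with the GC trend removed (adjusted p = 0.0492), where 17.8% and 13.4% of all tested genes were called higher.

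Pax6, the paired homeobox factor of granule progenitors and neurons, lies at chr2:105509053-105543317 on the plus strand. It was at 20.5 CPM, 21.1 CPM and 21.2 CPM in the controls, and at 19.1 CPM, 18.2 CPM, 17.2 CPM and 31.2 CPM in WDR11OE replicates 1 to 4. The controls were close to each other, with an SD of log2 CPM of 0.02 at percentile 1.32 of all tested genes, while WDR11OE replicates 1 to 3 were below and replicate 4 above them. Between the groups the log2 fold change was 0.03 (SE 0.21, adjusted p = 0.925, edgeR), with a 95% interval from −0.47 to 0.53. It was −0.21 without WDR11OE replicate 4 (adjusted p = 0.117, edgeR). Of the 19833 exon bases of Pax6, 5542 overlap those of Elp4 on the opposite strand, and the strand setting of the counting is not given in the sources used here.

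Meis1, the TALE homeobox factor, lies at chr11:18780433-18918961 on the minus strand. It was at 14.5 CPM, 15.8 CPM and 14.7 CPM in the controls and at 20.2 CPM, 18.4 CPM, 21.5 CPM and 36.6 CPM in WDR11OE replicates 1 to 4. It was the only tested factor whose groups did not overlap, which held for 42.7% of all tested genes in either direction and for 23.5% with WDR11OE higher. The log2 fold change was 0.69 (SE 0.24, adjusted p = 0.0667, edgeR; exact permutation p = 0.0571), with a 95% interval from 0.12 to 1.26. Without WDR11OE replicate 4 the log2 fold change was smaller, at 0.41, and it passed the test (SE 0.10, adjusted p = 0.0224, edgeR), where 17.6% of all genes were called higher. The call was also made by DESeq2 (adjusted p = 0.0267), with the filter at 1 CPM (adjusted p = 0.0495, edgeR) and with the exon length trend removed (adjusted p = 0.0245, edgeR). Those settings called 17.8%, 18.5% and 18.5% of all tested genes higher. With the GC trend removed Meis1 was not called (log2 fold change 0.49, adjusted p = 0.167, edgeR). Gm16140, which shares 896 bases of exon with Meis1 on the opposite strand, had at most 1 count in any tumor.

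Etv1, the ETS factor, lies at chr12:39505967-39594802 on the plus strand. It was at 9.89 CPM, 13.2 CPM and 8.70 CPM in the controls and at 4.76 CPM, 5.89 CPM, 8.26 CPM and 14.4 CPM in WDR11OE replicates 1 to 4. As for Zic4, WDR11OE replicates 1 to 3 were below every control and replicate 4 was above every control. For Etv1 the log2 fold change was −0.34 (SE 0.38, adjusted p = 0.540, edgeR), with a 95% interval from −1.24 to 0.56, and it was −0.75 without WDR11OE replicate 4 (adjusted p = 0.0613, edgeR).

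**Figure D2:**
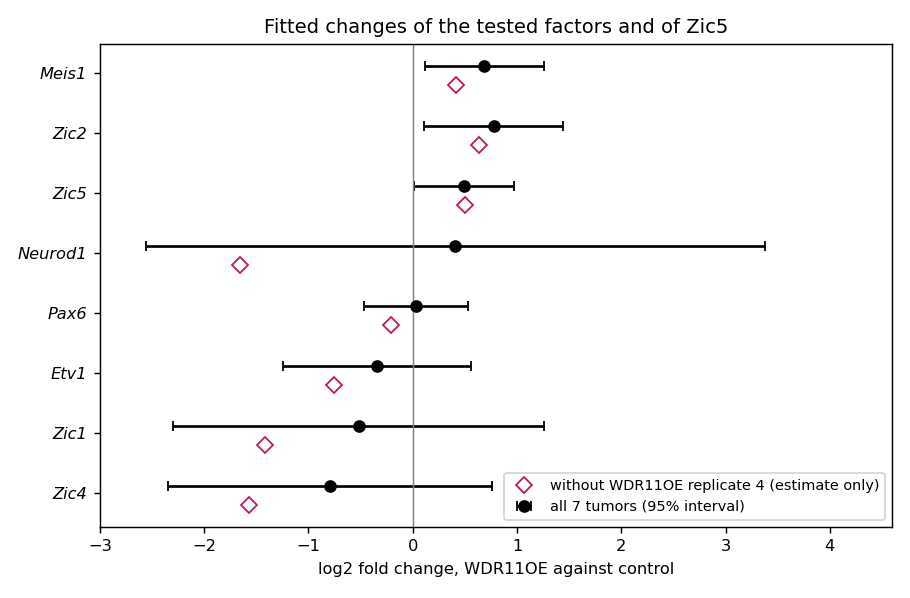
Log2 fold change of WDR11OE against control for the 7 tested factors and for Zic5. Black points with bars are the edgeR estimate over all 7 tumors with its 95% interval, and open diamonds the estimate without WDR11OE replicate 4. The interval of Neurod1 is the widest, from −2.56 to 3.37, and the diamonds of Zic1 and Zic4 are at −1.42 and −1.57.

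WDR11OE replicate 4 was the highest tumor for 7 of the 7 tested factors, while 25.0% of all tested genes were highest there. Its log2 CPM above the mean of WDR11OE replicates 1 to 3 was 3.83 for Neurod1, 2.45 for Zic1 and 2.03 for Zic4, and between 0.52 and 1.23 for Zic2, Pax6, Meis1 and Etv1, where the median of all tested genes was 0.02. Of the lists of markers for other cells, those of general neurons, astrocytes and the GABAergic lineage had their highest sum in WDR11OE replicate 4. The forebrain cortex, oligodendrocyte, endothelial, meningeal fibroblast, skeletal muscle and erythrocyte lists had theirs in another tumor. The microglia sum was nearly equal in control replicate 2 (201.53 CPM) and WDR11OE replicate 4 (201.51 CPM). The mean log2 CPM of the microglia list was highest in WDR11OE replicate 4, at 4.53, beside 4.07 in control replicate 2. The meningeal fibroblast sum was lowest in WDR11OE replicate 4, at 331 CPM. The summed level of the 9 measured general neuron markers was 365 CPM in WDR11OE replicate 4 and 13.7 CPM, 23.0 CPM and 115 CPM in replicates 1 to 3, beside 238 CPM, 92.0 CPM and 44.1 CPM in control replicates 1 to 3. The astrocyte list summed to 984 CPM there and to between 346 and 599 CPM in replicates 1 to 3, and the GABAergic list to 346 CPM and to between 66.1 and 157 CPM. The part of these cells in the values of the factors was not tested.

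**Figure D3:**
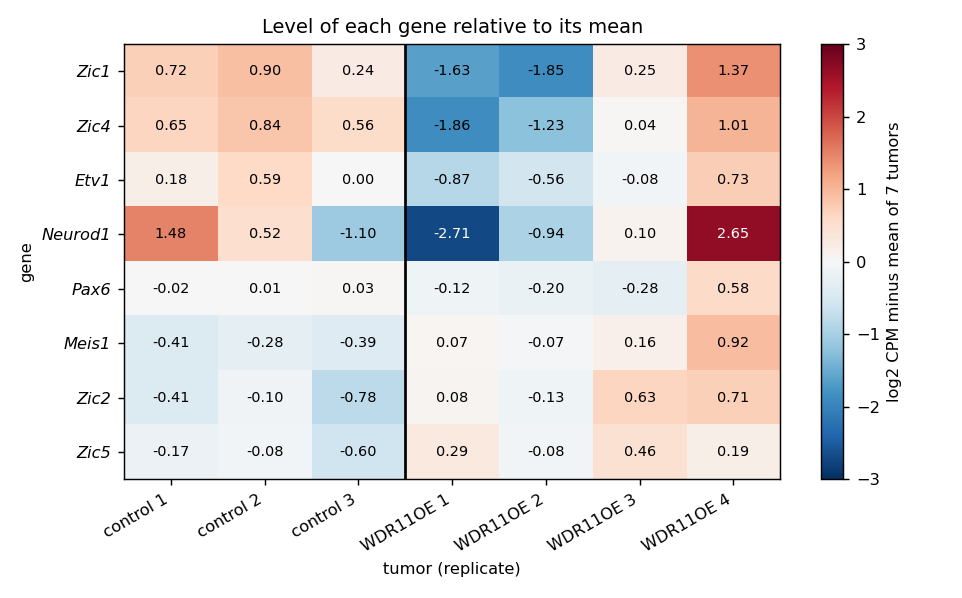
Log2 CPM of the tested factors and of Zic5 in each tumor, minus the mean of that gene over the 7 tumors (red higher, blue lower, value in each cell), with controls to the left of the black line. Zic1, Zic4 and Etv1 have their 2 most negative values in WDR11OE replicates 1 and 2, Neurod1 has its own in WDR11OE replicate 1 (−2.71) and control replicate 3 (−1.10), and the column of WDR11OE replicate 4 is positive for all 8 genes.

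Per kilobase of exon, Meis1 was the most abundant of the factors in the controls, at 2.03 ± 0.0962 RPKM (SD, n = 3). Etv1 at 1.80 ± 0.392 RPKM and Zic1 at 1.78 ± 0.402 RPKM came next, and these 3 differed by less than their spread. Pax6 at 1.06 ± 0.0177 RPKM and Zic2 at 0.801 ± 0.188 RPKM followed. Neurod1 at 0.221 ± 0.176 RPKM and Zic4 at 0.166 ± 0.0171 RPKM did not differ beyond the spread of Neurod1. In WDR11OE, Meis1 was at 3.27 ± 1.13 RPKM (SD, n = 4) and again the highest, and Etv1 at 1.42 ± 0.735, Zic2 at 1.38 ± 0.386, Zic1 at 1.24 ± 1.24 and Pax6 at 1.08 ± 0.330 RPKM could not be ordered within their spread. Zic1 was thus at 0.309 to 2.95 RPKM within one group, and Zic4 was at 0.0252 to 0.209 RPKM. These levels use the union of annotated exons as the length, so a gene with long alternative exons is set lower.

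The Zic genes fell into pairs of similar pattern. Pearson's r of log2 CPM over the 7 tumors was 0.964 for Zic1 and Zic4 (exact permutation p = 0.00278, 0.0333 after Benjamini-Hochberg adjustment over 36 pairs of genes), Spearman's rho was 0.929 (exact permutation p = 0.00675, adjusted p = 0.0607), and r was 0.853 without the 2 tumors farthest from the median of Zic1. For Zic2 and Zic5, which lie 9704 bases apart, r was 0.895 (exact permutation p = 0.00615, adjusted p = 0.0443) and rho 0.893 (exact permutation p = 0.0123, adjusted p = 0.0886), and r without the 2 farthest tumors was 0.955. For Zic1 and Zic2, r was 0.168 over all tumors (exact permutation p = 0.719, adjusted p = 0.862; rho = 0.393, exact permutation p = 0.396, adjusted p = 0.678). After the mean of each group was subtracted, r was 0.961 for Zic1 and Zic4, 0.755 for Zic2 and Zic5, and 0.885 for Zic1 and Zic2. These correlations share the tumors, and the r after subtraction is given with no test.

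Etv1 was ordered over the tumors exactly as Zic4. Their rho was 1 (exact permutation p = 0.000397, adjusted p = 0.0143) and r was 0.950 (exact permutation p = 0.000198, adjusted p = 0.00714), or 0.881 without the 2 farthest tumors. Etv1 and Zic1 gave r = 0.947 (exact permutation p = 0.00119, adjusted p = 0.0214) and rho = 0.929 (exact permutation p = 0.00675, adjusted p = 0.0607), and r = 0.955 without the 2 farthest. Zic2 and Meis1 gave r = 0.857 (exact permutation p = 0.00595, adjusted p = 0.0443) and rho = 0.929 (exact permutation p = 0.00675, adjusted p = 0.0607), and r = 0.804 without the 2 farthest. Pax6 and Meis1 are an example of a value that rests on few tumors, with r = 0.631 over all 7 (exact permutation p = 0.153, adjusted p = 0.292), rho = −0.11 (exact permutation p = 0.840, adjusted p = 0.945), and r = −0.82 without the 2 farthest.

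Ratios within a tumor, which do not depend on the scaling of the libraries, were compared for Zic1 to Zic4, Zic1 to Zic2, and Neurod1 to Pax6. Zic1 was 3.20, 2.92 and 2.96 times Zic2 in CPM in control replicates 1 to 3. In WDR11OE replicates 1 to 4 the ratio was 0.437, 0.434, 1.11 and 2.29. All 4 WDR11OE ratios were below the 3 control ratios, which lay close together. The mean log2 ratio was 1.59 ± 0.07 (SD, n = 3) in controls and −0.26 ± 1.15 (SD, n = 4) in WDR11OE, a difference of −1.84 (two-sided exact permutation test, p = 0.0571, adjusted p = 0.171 over the 3 ratios). It lay between −2.33 and −1.53 when each tumor was left out in turn. The ratio shows unequal levels and not which of the genes moved.

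The ratio of Zic1 to Zic4 was 6.40, 6.35 and 4.88 in the controls and 7.91, 4.15, 7.11 and 7.79 in WDR11OE replicates 1 to 4. The groups overlapped, and the difference of the mean log2 ratio was 0.11 (two-sided exact permutation test, p = 0.743, adjusted p = 0.743). Neurod1 was 0.0541, 0.0260 and 0.00723 times Pax6 in the controls, and 0.00124, 0.00961, 0.0233 and 0.0816 times Pax6 in WDR11OE replicates 1 to 4, with a difference of the mean log2 ratio of −0.52 (two-sided exact permutation test, p = 0.743, adjusted p = 0.743). A ratio of Neurod1 to Atoh1 could not be computed, since Atoh1 was at 0.

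**Figure D4:**
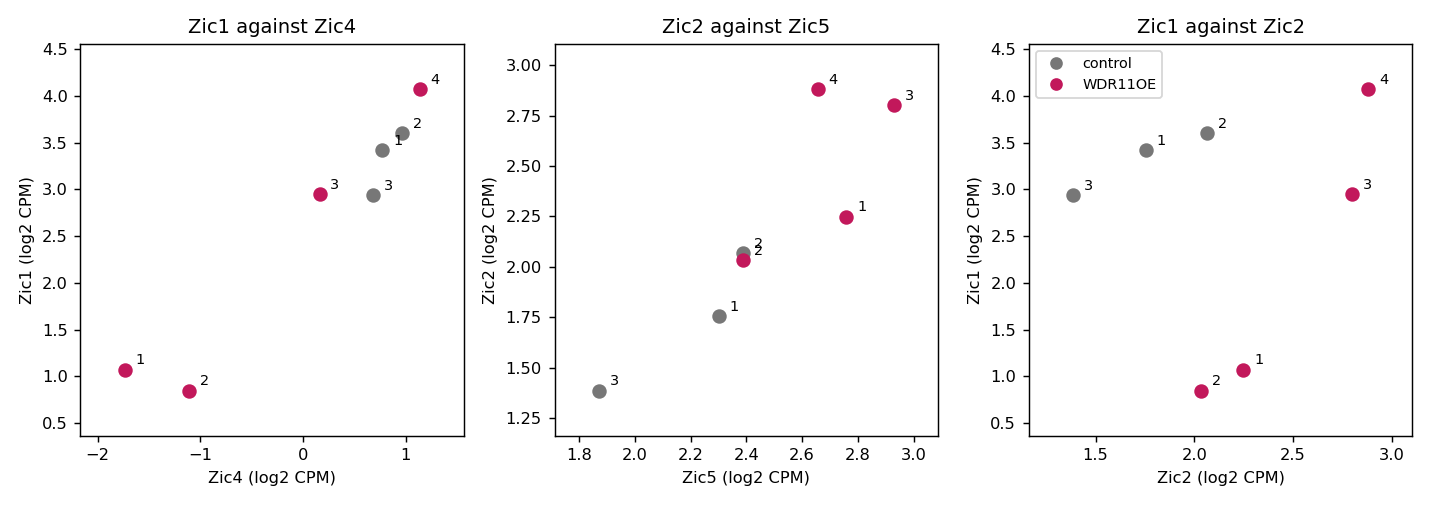
Log2 CPM of pairs of Zic genes in each tumor, with grey points for controls, pink points for WDR11OE and replicate numbers beside them. Zic1 and Zic4 lie along one line (r = 0.964), as do Zic2 and Zic5 (r = 0.895), whereas in the panel of Zic1 against Zic2 the 4 WDR11OE points have a lower Zic1 for their Zic2 than the controls, with log2 ratios from −1.19 to 1.19 beside 1.54 to 1.67.

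For each factor, the 3 genes with the most similar pattern were taken from 14517 genes with an average log2 CPM above 0, as a description over 7 tumors. Zic1 was most like Mtap1b, a microtubule-associated protein of neurons (r = 0.994), followed by Slc2a13 (r = 0.991) and Prepl (r = 0.989). Neurod1 was most like Diras1 (r = 0.984) and Unc13a, a presynaptic priming factor (r = 0.984). Zic4 was most like Pias1, Kctd12 and Clip2 (r = 0.992, 0.992 and 0.988), and Etv1 most like Plxdc2, Cttnbp2 and Samd5 (r = 0.985, 0.984 and 0.983). Meis1 was most like Gm16835, Pion and Samsn1 (r = 0.989, 0.987 and 0.987), Zic2 most like 2210015D19Rik, Kbtbd3 and Gzmm (r = 0.988, 0.975 and 0.973), and Pax6 most like 2510003E04Rik, Kif3b and Ralgps2 (r = 0.980, 0.974 and 0.963). The number of genes with r of at least 0.95 ranged from 5 for Pax6 to 152 for Neurod1. None of these most similar genes was called between the conditions by edgeR, with adjusted p between 0.0608 and 0.989, beside 33.9% of all tested genes called. They were picked for a pattern like that of factors that were not called. The lack of calls was therefore largely fixed by that choice, and nothing is concluded from it.

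Of 18 family relatives of the factors, 9 could be tested and none was called in either direction by edgeR, beside 18.1% of all tested genes called higher and 15.8% lower. At an unadjusted p under 0.05, 1 was higher (Zic5) and 1 lower (Neurod2), beside 23.9% and 19.9% of all tested genes. The adjusted calls were 0 and 0 with voom and 0 and 1 with DESeq2. Of the 17389 tested genes, voom called 3079 higher and 2681 lower, and DESeq2 called 3101 and 3361. Zic5 was at 3.62 to 5.20 CPM in controls and 5.19 to 7.58 CPM in WDR11OE, with a log2 fold change of 0.49 (SE 0.20, adjusted p = 0.104, edgeR). Meis2, the TALE relative of Meis1, was at 5.19 ± 5.10 CPM (SD, n = 3) in controls and 38.6 ± 57.2 CPM (SD, n = 4) in WDR11OE, and reached 122 CPM in WDR11OE replicate 4. Neurod2 was at 1.74 ± 1.87 CPM (SD, n = 3) and 0.346 ± 0.296 CPM (SD, n = 4), with a log2 fold change of −2.25 (SE 0.90, adjusted p = 0.0957, edgeR). Of the Pax relatives, Pax2, Pax3, Pax5 and Pax8 had at most 9 counts in any tumor.

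Of 17 tested binding partners and antagonists of the factors, 1 was higher and 4 were lower in WDR11OE, beside 18.1% and 15.8% of all tested genes, with a median log2 fold change of −0.21 beside 0.08 over all genes tested. Tcf3, the E protein that pairs with Atoh1 and Neurod1, was at 171.8 ± 17.1 CPM (SD, n = 3) in controls and fell to 107.8 ± 12.1 CPM (SD, n = 4) in WDR11OE, or by a log2 fold change of −0.67 (SE 0.11, adjusted p = 0.00396, edgeR). Tcf4, another E protein, was lower by a smaller amount, with a log2 fold change of −0.34 (SE 0.10, adjusted p = 0.0396, edgeR), and Tcf12 was not called (−0.21, adjusted p = 0.0912). Id2, which binds E proteins and keeps them from DNA, was the higher gene, at 12.9 ± 2.82 CPM in controls and 21.9 ± 4.26 CPM in WDR11OE, with a log2 fold change of 0.76 (SE 0.20, adjusted p = 0.0262, edgeR). Hey1, a bHLH repressor of the Notch pathway, was lower (log2 fold change −0.86, adjusted p = 0.0166, edgeR), and so was Gli2, a Gli factor of the hedgehog pathway (−1.70, adjusted p = 0.00326), whereas Gli1 was not called (−0.16, adjusted p = 0.453). The Pbx partners of Meis1 that follow were not called, with Pbx2 at −0.30, Pbx3 at 1.56 and Pbx4 at 0.46 (adjusted p between 0.0514 and 0.497, edgeR). Of 17 alternative fits, all with the same sign, the call of Id2 was lost in 7 (with the GC or the exon length trend removed, with WDR11OE replicates 1 and 2 summed, and without control replicate 1 or 3 or WDR11OE replicate 1 or 2, adjusted p up to 0.124) and that of Tcf4 in 8 (with library size scaling, with the exon length trend removed, with the same 2 tumors summed, and without control replicate 1 or 3 or WDR11OE replicate 1, 2 or 3, adjusted p up to 0.417). Hey1 lost its call without control replicate 2 or 3 (adjusted p up to 0.0643), Tcf3 with the GC trend removed (adjusted p = 0.0582), and Gli2 in 0 of the 17.

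In the list of granule progenitor genes, 0 of 16 tested genes were higher and 8 were lower, with a median log2 fold change of −0.51. Over all genes tested, 18.1% were higher and 15.8% lower, with a median of 0.08. The list was not tested as a whole. The lower genes included Hhip, which binds hedgehog ligands (−0.84, adjusted p = 0.00151, edgeR), and Ccnd2, a cyclin of granule progenitors (−1.41, adjusted p = 0.00151). They also included Gli2, which is counted among the lower partners too. The weakest of the 8 calls (adjusted p = 0.0479, edgeR) was lost in 14 of 17 alternative fits, among them every fit with a tumor left out. The next weakest (adjusted p = 0.0208, edgeR) was lost in 3 of 16, and the remaining calls in 0. In the list of postmitotic and migrating granule neurons, 0 of 18 were higher and 7 lower, beside 18.1% and 15.8% of all tested genes. Its median was −0.18. The smallest adjusted p were those of Nfix (−1.54, adjusted p = 0.00104, edgeR), Nfic (−1.72, adjusted p = 0.00105) and Nfia (−1.45, adjusted p = 0.00107), which are nuclear factor I genes that are expressed widely in brain. Nfib, of the same family, was lower too (−0.82, adjusted p = 0.00286, edgeR), as were Plxna2, a plexin (−1.66, adjusted p = 0.00388), Sema6a, a transmembrane semaphorin of migrating granule neurons (−0.83, adjusted p = 0.00846), and Pard3, a polarity protein (−0.47, adjusted p = 0.0254). The call of Pard3 was lost in 7 of 17 alternative fits (with the exon length trend removed, with WDR11OE replicates 1 and 2 summed, and without control replicate 2 or 3 or WDR11OE replicate 1, 2 or 3, adjusted p up to 0.453), and those of the other 6 in 0. Among members that were not called were Dcx, a microtubule protein of migrating neurons, with a log2 fold change of 2.11 (adjusted p = 0.201) and Cntn2, an adhesion protein of early granule neurons, with 0.15 (adjusted p = 0.929).

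Of 10 genes of mature granule neurons 8 could be tested and none was called in either direction by edgeR, voom or DESeq2, and 0 passed an unadjusted p under 0.05. Over all tested genes, edgeR called 18.1% higher and 15.8% lower, and 23.9% and 19.9% passed an unadjusted p under 0.05. Their summed level was 536.9 CPM in control replicate 1 and between 37.6 and 171 CPM in the other 6 tumors, and the atypical cadherin gene Fat2 alone reached 462 CPM in one control. Other rhombic lip factors gave 0 higher and 2 lower of 7 tested, beside 18.1% and 15.8% of all tested genes. The 2 were Lhx2 (−1.39, adjusted p = 0.00121, edgeR) and Lmx1a (−1.76, adjusted p = 0.0148), LIM homeobox genes of the forebrain and of the roof plate. Olig3, Ptf1a and Skor2, factors of hindbrain progenitors and of the GABAergic lineage, were at 0 counts in all 7 tumors.

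**Figure D5:**
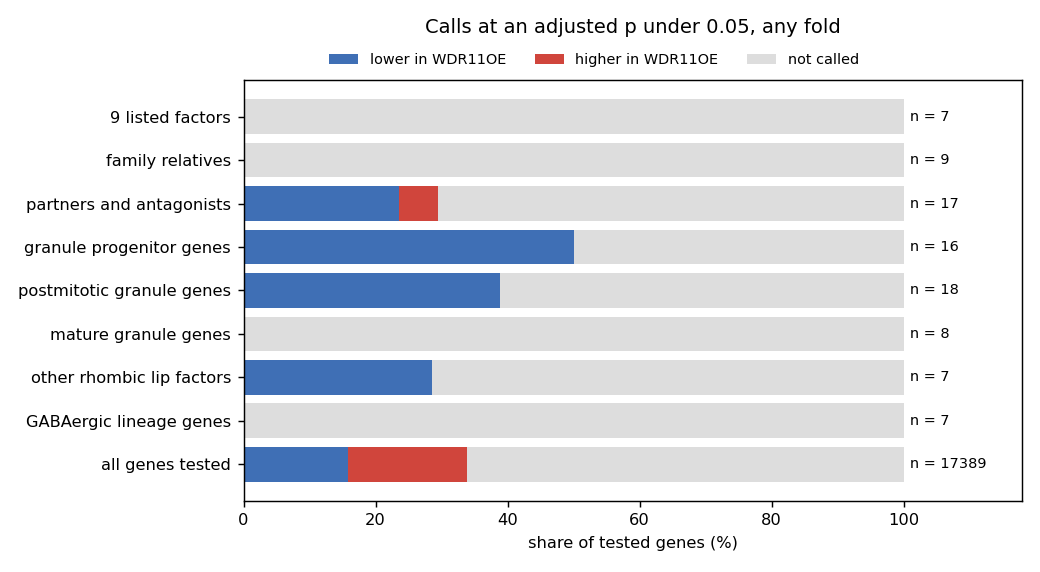
Share of the tested genes of each list that were higher (red) or lower (blue) in WDR11OE at an adjusted p under 0.05 at any fold, with the number tested at the right. The factors, their relatives, the mature granule genes and the GABAergic genes have no call, the progenitor list has 8 lower of 16, and the bar of all genes shows 18.1% higher and 15.8% lower.

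The genes beside the factors on the chromosome were measured as well. Spred2, an inhibitor of Ras signalling next to Meis1, was at 30.7 ± 1.51 CPM (SD, n = 3) in controls and 11.4 ± 3.02 CPM (SD, n = 4) in WDR11OE, and its log2 fold change was −1.43 (adjusted p = 0.00238, edgeR) beside 0.69 for Meis1. Tbc1d2b, the nearest gene on one side of Zic1 and Zic4, fell from 39.3 ± 5.91 CPM to 22.0 ± 2.21 CPM (log2 fold change −0.84, adjusted p = 0.00292, edgeR). Smarcad1, the nearest gene on one side of Atoh1, was at 91.6 ± 4.84 CPM in the controls, beside Atoh1 at 0. Immp1l beside Pax6 was higher (0.65, adjusted p = 0.00418, edgeR), Ddx31 beside Barhl1 was higher (0.37, adjusted p = 0.0174), and Arl4a beside Etv1 was higher (0.63, adjusted p = 0.0399), whereas Pax6 and Etv1 were not called and Barhl1 had 1 count.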

How the data were processed

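The authors mapped the reads to NCBIM37 and counted them per gene with HTSeq on a GENCODE annotation. What they deposited are these raw counts, one per gene in each tumor, and no normalized values. The submitters' processing notes name CASAVA 1.7, STAR, BWA and mm9 (another name of NCBIM37). The labels name an RNA library kit, whereas the study's methods speak of stranded total RNA, and the strand setting of the counting is not given in the sources used here.

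From the counts, edgeR 4.0.16 in R 4.3.3 kept 17389 genes by filterByExpr, scaled them by TMM and fitted the quasi-likelihood test (two-sided, WDR11OE against control, no covariate), with Benjamini-Hochberg adjustment over all genes tested. The biological coefficient of variation was 34.6%. CPM are TMM-scaled, log2 CPM use a prior count of 2, and RPKM divide CPM by the union exon length of the NCBIM37 annotation, to which 33606 of 34592 genes were matched. Single values and ratios were compared by exact permutation over the 35 splits of 7 tumors. Depth was 32116095 to 87141305 counts, and floors of 3 counts cover counting error only.

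The 9 factors and the gene lists were chosen with earlier results of these data known. Named genes are the factors, their relatives, partners and flanking genes, from each other list the 3 genes with the smallest adjusted p in each direction and genes at 0, and the 3 most similar genes to each factor. Other list genes named (En1, Gabra6, Dcx, Cntn2, Fat2, Nfib, Plxna2, Sema6a and Pard3) were chosen after their values were seen. Some genes that this rule names are not reported here. Alternatives were limma 3.58.1 voom (the study's method), DESeq2 1.42.0, other scalings and filters, the study's 2-fold rule, offsets for GC content or exon length, 2 WDR11OE tumors summed, and each tumor left out.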

Additional observations from a re-analysis of the deposited data

Results flagged for a closer look

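The log2 ratio of Zic1 to Zic4 in WDR11OE replicate 2, at 1.96, stood apart from the other 3 WDR11OE tumors, where it was 2.81, 2.79 and 2.94. Dixon's test for a lone value was applied within the 4 WDR11OE tumors to 12 quantities, and by chance it marks about 1 group in 20. The controls, a group of 3, were not tested in this way, and their log2 ratios were 2.65, 2.64 and 2.26, with control replicate 3 below the other two.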

How the results depend on the processing

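Under 18 alternatives the number of factors lower in WDR11OE was 0 throughout. The number higher, 0 in the edgeR fit, was 2 with DESeq2 (Meis1 and Zic2) and 1 with the filter at 1 CPM (Meis1). It was 1 with the GC trend removed (Zic2) and 1 with the exon length trend removed (Meis1). In the same order, these settings called 17.8%, 18.5%, 13.4% and 18.5% of all tested genes higher. With each tumor left out, the number of factors higher ranged from 0 to 1. The 1 was Meis1 without WDR11OE replicate 4, where 17.6% of all tested genes were called higher. Zic1, Zic2, Zic4, Meis1 and Etv1 kept their sign under every alternative run, with ranges of the log2 fold change from −1.42 to −0.29, 0.62 to 0.96, −1.57 to −0.57, 0.41 to 0.84 and −0.75 to −0.16. The adjusted p ranged from 0.0444 to 0.201 for Zic2 and from 0.0224 to 0.167 for Meis1. The log2 fold change of Pax6 changed sign with DESeq2 (−0.020), with RLE scaling (−0.021), without a filter (−0.027) and with the GC trend removed (−0.084), and ranged from −0.21 to 0.13 with each tumor left out. That of Neurod1 changed sign with voom (−0.51), and ranged from −1.65 to 1.16 with each tumor left out; it had no value under the filter at 1 CPM, which removed the gene. With each tumor left out, the difference of the log2 ratio ranged from −0.024 to 0.33 for Zic1 to Zic4 and from −1.28 to 0.27 for Neurod1 to Pax6. The cause of these changes was not tested.

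The list counts were recomputed under the same alternatives, which was chosen after seeing the data. The number lower ranged from 2 to 5 for the partners, 6 to 8 for the progenitor genes and 6 to 7 for the postmitotic genes with each tumor left out, and was 1, 3 and 4 under the study's 2-fold rule, which called 3.36% of all genes lower. The partner count was lowest, at 2, without control replicate 3. No paired analysis was possible because the labels give no replicate numbers that the groups share. At these depths, Neurod1 had between 1 and 232 counts and Zic4 between 11 and 197, so their values in single tumors carry the largest counting error among the tested factors.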
